A study of Mus musculus with 12 samples.

Results

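The genes described here mark the 2-cell-like state of mouse embryonic stem cells. Their list of 8 holds the zinc finger gene Zfp352, the deubiquitinase genes Usp17lc and Usp17la, the Zscan4 copies Zscan4c, Zscan4d and Zscan4f, and the variable 2-cell-stage genes Tcstv1 and Tcstv3. A probe was taken as a member's if its name in the scanner files, its current symbol or its RefSeq accession matched the gene. This gave 11 probes for 6 of the 8 genes, out of 27670 genes on the array. Zscan4d and Zscan4f matched no probe and are not analysed here.

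In culture, a small share of mouse embryonic stem cells passes through a transient state in which transcripts of the 2-cell embryo, made when the zygotic genome first becomes active, are transcribed again. The state is marked by Zscan4 and by the endogenous retrovirus MERVL, and the homeodomain factor Dux is a known activator of both. Several chromatin repressors are known to keep this programme low in most embryonic stem cells.

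The samples were cultures of J1, a mouse embryonic stem cell line, each hybridised to 1 of 12 single-colour Agilent arrays. The cells carried a lentiviral short hairpin RNA against Ino80 (shIno80), which encodes the catalytic subunit of INO80, a complex that remodels chromatin, or a non-targeting hairpin (shNT), and RNA was taken at day 2, 4 or 6 after infection. Each of the 6 groups had 2 arrays, named biological replicates by the submitters. The sources used here do not say how these cultures were set up, so the spread that enters the p-values may be partly technical. The labels name a single agent against Ino80 and M15 medium during infection, and mention no selection or sorting of infected cells.

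The deposited records disagree on 6 of the 12 arrays. In all 3 slides, positions 2 and 3 carry one hairpin by the columns of the value table and the other by the samples to which the scanner files are attached. Arrays are given here as the value table names them, a choice made with the Ino80 signal and the correlations between arrays known. So placed, arrays of 1 group correlated at 0.991 to 0.994, and arrays of different groups at no more than 0.987. As attached, arrays of 1 group correlated at 0.948 to 0.987. Each slide holds 1 day, and each hairpin has its own 2 positions on every slide, so slide and day, and position and hairpin, cannot be told apart. The share of probes well above background ran from 61.9% to 69.2% per array, and no member spot was saturated.

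Ino80 itself was lower in shIno80 cells on all 3 days. Its level, as log2 signal relative to the array's 75th percentile, was 0.58 and 0.85 in shIno80 cells at day 2, against 2.74 and 2.68 in shNT cells. It was -0.29 and 0.12 in shIno80 cells at day 4, against 2.27 and 2.16 in shNT cells. At day 6 it was -0.20 and 0.02 in shIno80 cells, against 1.89 and 2.05 in shNT cells. The log2 differences were -1.99, -2.29 and -2.06 (SE 0.16 each, adjusted p = 0.000705, 2.39e-05 and 2.58e-05 in limma's moderated test). Because this signal was known when the arrays were placed, it is no independent check of the labels of the 6 arrays on which the records disagree. On the 6 arrays that both records place alike, the difference was -1.89, -2.14 and -1.87 at days 2, 4 and 6, without a test. The other Ino80 probes gave -2.81 to -1.77 there.

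The sequences of 7 of the 11 member probes, as the files give them, show what each gene's signal was read from and how far the Tcstv probes share their letters. Capitals mark the stretch in which a probe overlaps another member probe. Between A_52_P66425 and A_52_P165856 that stretch holds 1 mismatch.
Zfp352 A_51_P136390: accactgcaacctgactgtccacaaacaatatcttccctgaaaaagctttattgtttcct
Zscan4c A_52_P302671: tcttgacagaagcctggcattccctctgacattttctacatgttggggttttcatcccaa
Usp17la A_51_P302273: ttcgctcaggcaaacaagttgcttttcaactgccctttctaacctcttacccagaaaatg
Usp17lc A_51_P135622: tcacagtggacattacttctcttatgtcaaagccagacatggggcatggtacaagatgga
Tcstv1 A_51_P481768: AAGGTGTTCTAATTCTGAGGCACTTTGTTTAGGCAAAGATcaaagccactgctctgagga
Tcstv1 A_52_P66425: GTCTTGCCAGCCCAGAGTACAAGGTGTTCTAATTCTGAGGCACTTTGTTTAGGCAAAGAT
Tcstv3 A_52_P165856: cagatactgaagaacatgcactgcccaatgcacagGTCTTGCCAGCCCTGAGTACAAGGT

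The array's annotation, in build mm7, puts the printed Zfp352 probe at chr4:89617872-89617931, the Zscan4c probe at chr7:9713271-9713330, the Usp17la probe at chr7:100918944-100919002 and the Usp17lc probe at chr7:99470286-99470345, all on the plus strand. The file calls these genes Zfp352, Gm397, Dub1 and Dub2. It puts the Tcstv probes on unplaced sequence, while RefSeq puts both Tcstv genes on chromosome 13. There A_52_P165856, named for Tcstv3, lies at 304775-304834, and Tcstv1's A_52_P66425 at 304741-304799. A_51_P481777, named for Tcstv1, lies at 918057-918116, near Tcstv3's A_51_P143200 at 917863-917922. The positions thus cross the gene names for these probes, which are reported by name. The printed Tcstv1 probes share 40 bases, and A_52_P66425 shares 25 bases with Tcstv3's A_52_P165856 with 1 mismatch. The accessions listed for A_52_P165856 belong to Tcstv3, Gm20767 and Tcstv1, and those for the third Tcstv1 probe, A_51_P481777, to Tcstv1, Tcstv3 and AF067061. These probes therefore do not separate the copies. Signal from unlisted near-identical copies of Zscan4 and Usp17l could likewise not be separated from that of the named gene.

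All 11 probes were higher in shIno80 than in shNT cells at days 4 and 6, and none passed the test at day 2. At day 2 the median log2 difference of the 11 was 0.76. Of the 11, 0 passed the test at that day (adjusted p under 0.05 over 28654 probes, limma), with 3 at an unadjusted p under 0.05, where 5.81% of all probes were called higher; 2 passed without shIno80 day 2 replicate 2 and 1 without shNT day 2 replicate 1. At day 4 the differences ran from 2.42 to 3.10 with a median of 2.68, or 6.43-fold, and all 11 passed, where 20.6% of all probes were called higher. Among these, Usp17lc met the filter for signal well above background only in shIno80 cells. At day 6, 8 of the 11 were called higher, against 21.8% of all probes, and the median log2 difference was 2.12, or 4.33-fold. Without shIno80 day 6 replicate 1, 5 passed at day 6. The arrays of the 2 hairpins did not overlap for 1 of the 11 probes at day 2, where 25.1% of all probes were higher in shIno80 cells without overlap. At days 4 and 6 they did not overlap for any of the 11, where 34.8% and 33.6% of all probes were higher without overlap. The medians over all probes were 0.02, -0.05 and -0.10 at days 2, 4 and 6. The members were chosen with earlier results of these data known, so their counts beside these shares do not test the list. Normexp background correction, in place of the scanner's own, left 4 called at day 4 and 2 at day 6. It also cut the calls over all 28654 probes, in either direction, from 12012 to 1836 at day 4 and from 14176 to 3197 at day 6. Of the calls that it left, 48.4% and 43.6% were higher. At day 2 normexp turned the differences of the Zfp352, Usp17lc, Tcstv1 and Tcstv3 probes negative, at -1.65 to -0.28. Those of Usp17la and Zscan4c stayed positive, at 0.38 to 1.15. None passed, and the median over all probes was -0.44 in that setting. In bulk RNA, more cells in the 2-cell-like state and more of its RNA per cell cannot be told apart.

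With arrays as the scanner files are attached, 0 of 10 tested member probes passed on any day, with 0 at an unadjusted p under 0.05, and the Ino80 difference was 0.10, 0.15 and 0.19 (SE 1.31) at days 2, 4 and 6. The 6 arrays that both records place alike leave 1 array a group and no test. On those alone, 2 of the 11 were higher at day 2, with a median of -0.34, where 55.8% of all probes were higher. The members were higher by 2.02 to 3.28 at day 4 and by 1.30 to 2.95 at day 6 in all 11 probes, where 48.3% and 40.4% of all probes were higher. The day 4 and day 6 differences thus had the same direction without the 6 arrays in question, and most of those at day 2 did not. At each day these arrays were shNT replicate 1 and shIno80 replicate 2. At day 2, replicate 1 was above replicate 2 for 10 of the 11 probes in each hairpin. Hairpin and replicate number therefore cannot be told apart on these arrays.

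**Figure D1:**
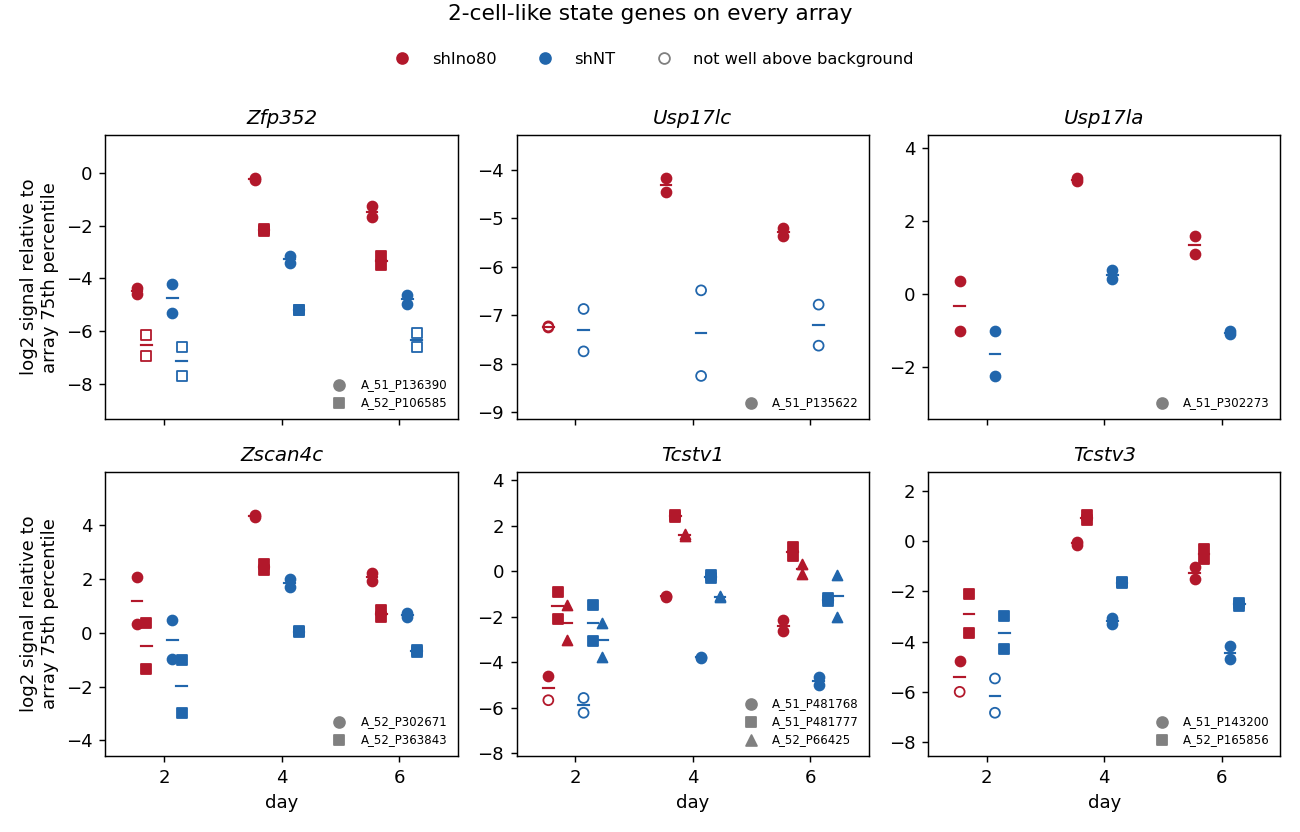
Log2 signal relative to the array's 75th percentile (vertical axis) at days 2, 4 and 6, 1 panel per gene, with shIno80 left of shNT at each day, 1 point per array, a short line at each mean and a marker shape per probe. Open points were not well above background. At days 4 and 6 the points of both shIno80 arrays lie above those of both shNT arrays for all 11 probes, while at day 2 they overlap for 10 of 11.

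Zfp352, a zinc finger gene transcribed in the 2-cell embryo, had the largest day 6 difference of the 11 probes. On its probe A_51_P136390 the arrays overlapped at day 2, at -4.35 and -4.57 in shIno80 cells and -4.20 and -5.32 in shNT cells, with a difference of 0.30 (adjusted p = 0.65). At day 4 the probe read -0.21 and -0.25 in shIno80 cells, against -3.42 and -3.14 in shNT cells. It read -1.25 and -1.68 in shIno80 cells at day 6, against -4.63 and -4.95 in shNT cells. The groups lay far apart on both of the later days, and the log2 differences were 3.05 and 3.33 (SE 0.33, adjusted p = 0.00018 and 8.46e-05), or 8.27-fold and 10.1-fold. The second probe, A_52_P106585, was not well above background on any of the 4 arrays of day 2, and differed by 3.04 at day 4 (SE 0.38, adjusted p = 0.000366). It was not well above background on either shNT array at day 6, where it was at least 6.00-fold higher in shIno80 cells (adjusted p = 0.0003). Such bounds set the mean of the shIno80 arrays against that of the shNT arrays. A dimmer shNT array was first raised to its dimmest signal that still counted as well above background. The p-values printed beside bounds are limma's for the differences as read, not for the bounds.

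Zscan4c encodes a SCAN-domain zinc finger protein known for its part in telomere lengthening and genome stability in embryonic stem cells. At day 2 its probe A_52_P302671 read 2.06 and 0.32 in shIno80 cells and 0.49 and -0.99 in shNT cells, and the difference of 1.44 did not pass (adjusted p = 0.159). The arrays of each hairpin lay over 1 log2 unit apart at that day, and the groups overlapped. The probe read 4.38 and 4.31 in shIno80 cells at day 4, against 1.69 and 2.00 in shNT cells, a difference of 2.49 (SE 0.58, adjusted p = 0.0088). At day 6 it read 2.21 and 1.92 in shIno80 cells, against 0.57 and 0.75 in shNT cells. The arrays of the hairpins did not overlap at day 6, but the difference of 1.40 missed the threshold (adjusted p = 0.0765). The second probe, A_52_P363843, gave 1.50, 2.42 and 1.38 at days 2, 4 and 6 (SE 0.65, adjusted p = 0.191, 0.0169 and 0.112). The Zscan4c calls turned on single arrays. At day 4 the second probe did not pass without any 1 of the 4 arrays of that day (adjusted p = 0.0602 to 0.0748), nor the first without shNT replicate 1 (adjusted p = 0.0512). At day 6 the first probe passed without any 1 of the arrays of day 2 (adjusted p = 0.0256 to 0.0452), and the second without either shNT array of day 2 (adjusted p = 0.0413). At day 2 the first passed without shIno80 replicate 2 (adjusted p = 0.0452) and the second without shNT replicate 1 (adjusted p = 0.043).

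Usp17la and Usp17lc belong to a family of deubiquitinating enzymes that was first described in cytokine-stimulated blood cells. Usp17la was the 1 member probe of 11 whose groups did not overlap at day 2. Its day 2 levels were 0.37 and -1.01 in shIno80 cells and -1.02 and -2.23 in shNT cells, so the groups were parted by a narrow margin, and the difference of 1.30 did not pass (adjusted p = 0.127, or 0.0475 without shIno80 replicate 2). It read 3.09 and 3.17 in shIno80 cells at day 4, against 0.41 and 0.65 in shNT cells. It read 1.60 and 1.11 in shIno80 cells at day 6, against -1.09 and -1.01 in shNT cells. Both of these differences passed, at 2.60 and 2.40 (SE 0.48, adjusted p = 0.00287 and 0.0035), or 6.07-fold and 5.29-fold.

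Usp17lc was well above background on the shIno80 arrays of days 4 and 6, and on no other array, so no array of day 2 measured it. It read -4.17 and -4.46 in shIno80 cells at day 4, against -6.48 and -8.25 in shNT cells, and -5.19 and -5.36 in shIno80 cells at day 6, against -6.78 and -7.62 in shNT cells. Against the lowest signal well above background, this is at least 3.42-fold higher at day 4 and at least 1.56-fold higher at day 6. The adjusted p of 0.00231 and 0.0176 (limma) belong to differences of 3.05 and 1.93, which rest on shNT values not well above background. Usp17lc was kept for testing only through the shIno80 groups of days 4 and 6, where it was high. The day 6 call was lost without either shIno80 array or shNT replicate 2 of that day (adjusted p = 0.0567 to 0.102).

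Tcstv1 and Tcstv3 are small genes first found as variable transcripts of the 2-cell embryo. At day 2, Tcstv3's probe A_51_P143200 was well above background on 1 of the 2 shIno80 arrays and on neither shNT array. It read -0.15 and -0.03 in shIno80 cells at day 4, against -3.31 and -3.07 in shNT cells. At day 6 it read -1.02 and -1.50 in shIno80 cells, against -4.17 and -4.70 in shNT cells. The differences of 3.10 and 3.18 (SE 0.49, adjusted p = 0.00135 and 0.000959) amount to 8.56-fold and 9.04-fold. The probe whose letters overlap Tcstv1, A_52_P165856, differed by 2.59 at day 4 (SE 0.51, adjusted p = 0.00396) and by 2.01 at day 6 (adjusted p = 0.0114), where it did not pass without shIno80 replicate 1 or shNT replicate 2 (adjusted p = 0.0633 and 0.0506).

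The 3 Tcstv1 probes differed by 2.68, 2.66 and 2.72 at day 4 (adjusted p = 0.000479, 0.00312 and 0.0147), the last of which did not pass without any 1 of the 4 arrays of that day (adjusted p = 0.0586 to 0.0637). They were less alike at day 6. A_51_P481768 read -2.15 and -2.63 in shIno80 cells at day 6, against -4.64 and -4.99 in shNT cells, a difference of 2.42 (adjusted p = 0.000642). A_51_P481777 differed by 2.12 (adjusted p = 0.00807, or 0.0503 without shIno80 replicate 1). A_52_P66425 read 0.31 and -0.12 in shIno80 cells at day 6, against -2.01 and -0.16 in shNT cells. Its second shNT array thus lay close to the shIno80 arrays, although A_51_P481768, with which it shares 40 bases, showed no such gap, and its difference of 1.18 did not pass (SE 0.71, adjusted p = 0.201). Without that array the difference was 2.11 (adjusted p = 0.0472).

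**Figure D2:**
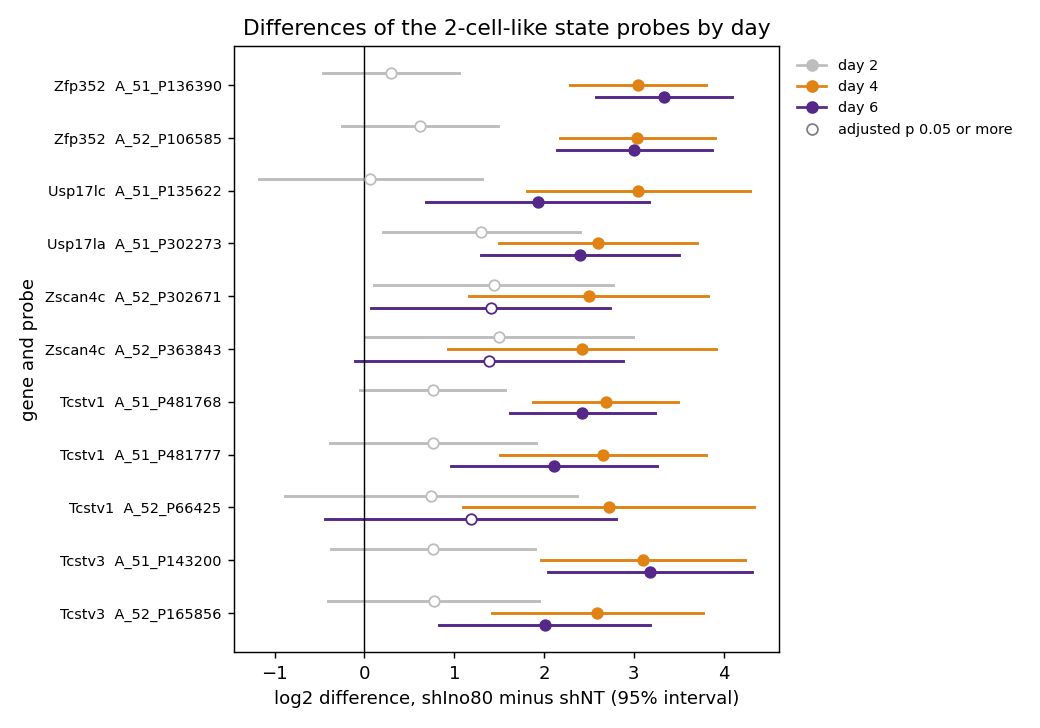
Log2 difference, shIno80 minus shNT (horizontal axis), with its 95% interval from the limma fit, for each of the 11 member probes (rows) at days 2, 4 and 6; filled points passed at an adjusted p under 0.05. At day 2 all points are open, at day 4 all 11 are filled and lie between 2.42 and 3.10, and at day 6 the 3 open points are both Zscan4c probes and Tcstv1 A_52_P66425.

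For 9 of the 11 probes in each hairpin, the gap between the arrays of a group was wider at day 2 than at either later day. The exceptions were Usp17lc and Zfp352 A_51_P136390 in shIno80 cells, and Usp17lc and Tcstv1 A_52_P66425 in shNT cells. Replicate 1 was above replicate 2 for 10 of the 11 probes in shIno80 cells at day 2, by a median of 1.22, and for 10 of the 11 in shNT cells, by a median of 1.31. Usp17lc was the exception in both. Over all probes, the median absolute gap between replicates at day 2 was 0.21 in shIno80 cells and 0.26 in shNT cells. The members' median absolute gap was 0.08 in shIno80 cells and 0.12 in shNT cells at day 4, where Usp17lc reached 1.76 in shNT cells. At day 6 it was 0.43 in shIno80 cells and 0.32 in shNT cells, where Tcstv1 A_52_P66425 reached 1.84 in shNT cells.

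The difference between hairpins grew between days 2 and 4 for 4 of the 11 probes, where 7.56% of all probes were called in that direction. It grew by 2.75 for Zfp352 A_51_P136390 (SE 0.47, adjusted p = 0.0076), by 2.42 for its second probe (SE 0.53, adjusted p = 0.0214), by 2.98 for Usp17lc (SE 0.76, adjusted p = 0.0369) and by 1.92 for Tcstv1 A_51_P481768 (SE 0.50, adjusted p = 0.0378). The first of these probes was well above background on all 12 arrays, and requiring that of every probe left it as the single call. The other 3 values set day 4 against a day 2 level that was not measured and are not sizes of a measured change: at day 2 the second Zfp352 probe and Usp17lc were well above background on 0 of 4 arrays, and Tcstv1 A_51_P481768 on 1 of 2 shIno80 and 0 of 2 shNT arrays. The other 7 values were positive too, at 0.93 to 2.34, and did not pass, the smallest being those of Zscan4c. Leaving out 1 array took the count to 1 without shIno80 day 2 replicate 2, either shIno80 array of day 4 or shNT day 4 replicate 2, and to 2 without shNT day 4 replicate 1 or either shIno80 array of day 6. Between days 4 and 6, 0 of 11 changes of the difference passed in limma, with 0 at an unadjusted p under 0.05, where 1.56% of all probes were called in the upward and 1.6% in the downward direction. They were negative for 9 probes, with Tcstv1 A_52_P66425 lowest at -1.53, and 0.28 and 0.08 for the first Zfp352 and Tcstv3 probes.

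Across the 6 groups, the order of the mean levels was much the same for each member. The shIno80 cells of day 4 were highest for all 11 probes and those of day 6 came next for all 11. The shNT cells of day 4 were in the third place for 9 probes, and the shNT cells of day 2 were lowest for 9. The top group's arrays stood clear of the next group's for every probe. The group in the second place overlapped the next only for Zscan4c A_52_P302671, where shIno80 cells at day 6 averaged 2.06 and shNT cells at day 4 averaged 1.85. In the third place, the shNT cells of day 4 stood clear of the next group for both Zfp352 probes, Usp17la and both Tcstv3 probes. They also did so for Tcstv1 A_51_P481768 and A_51_P481777. For the other probes the group in the third place overlapped the next, and from the fourth place down neighbours mostly overlapped. For 7 of the 11 probes every array of both hairpins was well above background. In shIno80 cells these 7 were 2.96 to 4.23 higher at day 4 than at day 2, and their change from day 4 to day 6 was -2.28 to -1.23. In shNT cells they were 1.48 to 2.16 higher at day 4 than at day 2, and 6 of the 7 were lower at day 6 than at day 4, with a median change of -1.01, the exception being Tcstv1 A_52_P66425.

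The probes followed each other closely over the 12 arrays. Pearson's r between pairs of member probes ran from 0.715 to 0.998, a description over arrays that share the same groups, slides and scaling. The range includes pairs of probes of the same gene. Its top is A_51_P481777 with A_52_P165856, which both list accessions of Tcstv1 and Tcstv3. Its lowest value is Usp17lc with Zscan4c A_52_P302671, and Usp17lc was not well above background on most arrays. Ranked by r with the members' mean profile over the 12 arrays, the named genes most like it were Lgals6 (0.989), Arg2 (0.980), Penk (0.979), Clec10a (0.971), Pramel39 (0.970), Zfp560 (0.964), Lgals4 (0.963), Pramel37 (0.962), Cacna1s (0.960) and Cfap300 (0.958). Lgals6 encodes galectin-6, a close copy of galectin-4, Arg2 mitochondrial arginase, Penk the enkephalin precursor and Clec10a a C-type lectin. Lgals6 differed by 0.67, 2.35 and 1.58 at days 2, 4 and 6, and Zfp560, a zinc finger gene, by 0.06, 1.67 and 1.52. Penk passed at day 2 as well, at 0.67, 1.82 and 1.05 (adjusted p = 0.0412, 8.89e-05 and 0.00121). Cfap300 had a like profile on a small scale, with differences of 0.15, 0.43 and 0.24.

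Promoter sequence was compared because the members moved together. RefSeq's table (GRCm38.p6) holds 6 of the 8 listed genes, as 300 bases around the annotated start, and none for the Tcstv genes. The promoters of Zfp352, Zscan4c and Usp17lc are printed. Capitals mark TAATCC in Zfp352 and TATAAA in the other two.
Zfp352 (chr4:90218570-90218869, plus strand): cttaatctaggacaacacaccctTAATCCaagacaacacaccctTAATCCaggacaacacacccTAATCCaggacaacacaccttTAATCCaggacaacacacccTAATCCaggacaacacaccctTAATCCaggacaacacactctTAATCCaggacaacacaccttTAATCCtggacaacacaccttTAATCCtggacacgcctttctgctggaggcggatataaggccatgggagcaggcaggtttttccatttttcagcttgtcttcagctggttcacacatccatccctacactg
Zscan4c (chr7:11005495-11005794, plus strand): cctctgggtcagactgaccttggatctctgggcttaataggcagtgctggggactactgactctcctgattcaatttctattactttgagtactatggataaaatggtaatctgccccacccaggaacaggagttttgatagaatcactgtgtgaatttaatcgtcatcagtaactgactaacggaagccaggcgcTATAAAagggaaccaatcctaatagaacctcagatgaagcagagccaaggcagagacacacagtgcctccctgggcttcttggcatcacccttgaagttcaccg
Usp17lc (chr7:103416446-103416745, plus strand): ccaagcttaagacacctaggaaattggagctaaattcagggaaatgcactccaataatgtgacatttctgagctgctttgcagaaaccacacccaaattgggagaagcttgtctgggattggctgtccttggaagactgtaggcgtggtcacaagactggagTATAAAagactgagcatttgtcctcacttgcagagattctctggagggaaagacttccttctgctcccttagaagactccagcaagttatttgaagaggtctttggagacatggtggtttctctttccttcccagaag

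The Zfp352 window opens with a tandem repeat that holds TAATCC 9 times on the gene's strand, more than any other of 32851 promoters in the table, of which 7.06% hold it at least once on either strand. These letters were chosen after the sequence had been read. TATAAA, the TATA box letters, begins 54 bases before the start in Zscan4c and 88 before it in Usp17lc, and is also in the windows of Zscan4d and Zscan4f. It is in neither the Usp17la nor the Zfp352 window, and 13.6% of all promoters hold it on either strand. GATTNAATC, a form of the Dux motif, was in none of the 6 windows and in 0.268% of all promoters. Aligned end to end, the Zscan4c window was 93.7% identical to that of Zscan4d and 91.7% to that of Zscan4f. The Usp17la and Usp17lc windows were 81.7% identical, and pairs from different families 57.7% to 60.3%. Gaps were allowed, and promoters outside the list were not aligned. These shares therefore have no baseline and do not show shared sequence between families.

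Other genes of the 2-cell-like state were sparse on this array. Of 28 listed, 8 had a probe and 5 a probe well above background in at least 1 group, the other three being Obox3, Obox5 and Obox6. Each gene was read from its brightest such probe. At days 2, 4 and 6, 2, 1 and 1 of the 5 were called higher and 0, 0 and 1 lower, where 6.26%, 21.1% and 21.8% of 19183 genes were called higher and 28.4% lower at day 6. Their median log2 differences were 0.77, 0.49 and 0.12, against 0.01, -0.05 and -0.11 over all genes. The 1 call at day 4 was lost without shIno80 day 4 replicate 1 or shNT day 4 replicate 1, and became 2 without either shNT array of day 2 or shNT day 4 replicate 2.

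Usp17lb, another deubiquitinase of the family, read -0.92 and -0.93 in shIno80 cells at day 4, against -2.48 and -2.59 in shNT cells. Its differences of 1.76, 1.61 and 1.41 at days 2, 4 and 6 did not pass (SE 0.74, adjusted p = 0.18, 0.12 and 0.15), with shNT arrays of day 2 at -3.74 and -6.38. Gm5662 rose at day 4, by 0.50 (SE 0.13, adjusted p = 0.012), while its differences of -0.01 and 0.12 at days 2 and 6, and those of its second probe on all 3 days, did not pass. Duxbl1, a homeobox gene related to Dux, was higher at day 2 and lower at day 6, with differences of 1.17 and -1.12 (SE 0.17, adjusted p = 0.005 and 0.00082). Pramel12, listed under its older symbol Pramef8, was higher at days 2 and 6, by 0.77 and 0.65 (SE 0.10, adjusted p = 0.0028 and 0.00069).

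Tdpoz1, a TRAF and BTB domain gene, depended on the probe. Its brightest probe, A_52_P378157, differed by -0.23, 0.49 and -0.03 and passed on no day. A_52_P332044 read -3.31 and -3.19 in shIno80 cells at day 4, against -6.27 and -6.21 in shNT cells, and -3.99 and -4.33 in shIno80 cells at day 6, against -8.13 and -8.12 in shNT cells. It was well above background on the shIno80 arrays of days 4 and 6 alone. Its change is at least 7.17-fold at day 4 and at least 3.38-fold at day 6 (adjusted p = 2.91e-05 and 5.68e-06), and that of A_51_P506835 at least 6.86-fold and 2.38-fold. These 2 probes, chosen for mention after their values were seen, were measured in the same groups as Usp17lc, and were likewise kept for testing only through those groups.

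Known activators of the state did not move together. Dppa3, a maternal factor, was higher at days 4 and 6, by 1.70 and 0.92 (SE 0.27, adjusted p = 0.0013 and 0.021). The zinc finger factor Gata2 was lower at day 2 and higher at days 4 and 6, with differences of -0.91, 0.83 and 1.53 (SE 0.18, adjusted p = 0.017, 0.0065 and 0.00021). Its second probe, A_52_P233441, gave -1.03, 0.56 and 1.34 (SE 0.23), and did not pass at day 4 (adjusted p = 0.086 in limma). Dppa2 and Dppa4, which are known to activate Dux, differed by 0.00 and 0.14 at day 4, without passing, and were lower at day 6, at -0.74 and -0.53 (adjusted p = 0.00093 and 0.0025). Nelfa, a pausing factor, was lower at day 6, at -0.89 (adjusted p = 0.0049). Over the 5 activators, 0, 2 and 2 were called higher and 1, 0 and 3 lower at days 2, 4 and 6. Of all genes, 6.26%, 21.1% and 21.8% were called higher and 6.35%, 21.3% and 28.4% lower on those days.

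Of 26 known repressors, 2, 16 and 16 were called lower at days 2, 4 and 6 and 0, 3 and 2 higher. Of all genes, 6.35%, 21.3% and 28.4% were called lower and 6.26%, 21.1% and 21.8% higher. Their median log2 differences were -0.14, -0.46 and -0.52. This list, like the others set beside all genes here, was chosen with earlier results of these data known. The shares over all genes therefore do not test it. Of activators and repressors together, 21 passed at day 4, and 13 without shIno80 day 4 replicate 2. Tet2 and Zfp42 were lower on all 3 days, at -1.22, -2.36 and -2.91 for Tet2, a 5-methylcytosine oxidase, and -0.54, -2.01 and -1.81 for Zfp42, the zinc finger gene also called Rex1. Lower at days 4 and 6 were also Trim28, the corepressor of retroviral elements (-0.96 and -1.07), and Chaf1b, a subunit of the histone chaperone CAF-1 (-0.77 and -0.85). So was Tet1, also a 5-methylcytosine oxidase (-1.45 and -1.63). So were L3mbtl2 and Pcgf6 of a variant Polycomb complex (-0.85 and -1.36 for L3mbtl2, -0.84 and -0.64 for Pcgf6). The SUMO ligase gene Pias4 (-1.01 and -1.28), the replication timing factor Rif1 (-0.64 and -0.95) and the histone demethylase gene Kdm1a (-0.35 and -0.71) followed them. The other repressors lower on both days were Lin28a, an RNA-binding protein gene (-0.76 and -0.68), Mga of the same Polycomb complex (-0.58 and -0.38), the SUMO gene Sumo2 (-0.44 and -0.50), Zmym2 (-0.43 and -0.60) and the histone deacetylase gene Hdac1 (-0.36 and -0.55). E2f6, of the same Polycomb complex, was higher at days 4 and 6 (0.88 and 0.78), as was Smchd1 (0.73 and 0.66).

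**Figure D3:**
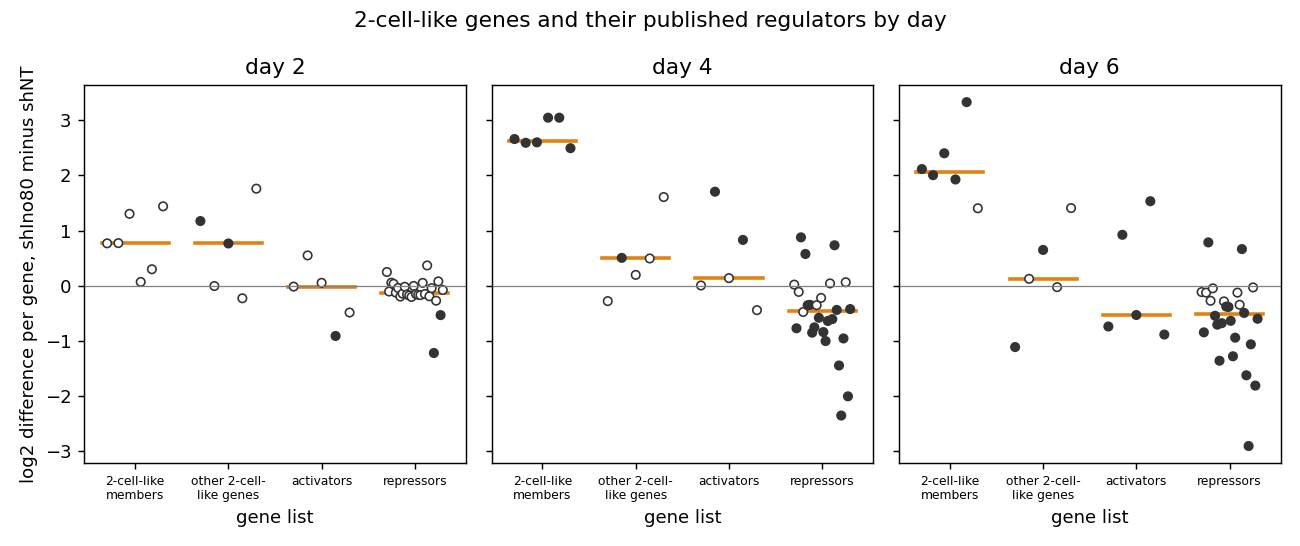
Log2 difference per gene, shIno80 minus shNT (vertical axis), at days 2, 4 and 6 for the 6 members, 5 other 2-cell-like genes, 5 activators and 26 repressors, each gene read from its brightest probe; filled points passed at an adjusted p under 0.05 and bars are list medians. The members' medians are 0.77, 2.63 and 2.06, and those of the repressors -0.14, -0.46 and -0.52.

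Markers of other states moved with the hairpin at the same days. All 9 measured markers of embryonic stem cells were lower in shIno80 cells at days 4 and 6, and 3 at day 2, and their mean level per array was 3.27 and 2.99 in shIno80 cells at day 4, against 5.01 and 4.93 in shNT cells. Each was well above background on at least 1 array of every group. Of 9 measured trophectoderm markers, 8 were higher and 0 lower at day 4, and 8 were higher and 1 lower at day 6, where 21.1% and 21.8% of all genes were called higher and 21.3% and 28.4% lower on those days. The lower one was Tfap2c, named after its value was seen (-1.41 at day 6). The list had a mean level of 1.42 and 1.46 in shIno80 cells at day 4, against -1.50 and -1.37 in shNT cells, and of 2.83 and 2.83 at day 6, against -0.93 and -0.99. Of 8 measured fibroblast markers, 5 were higher and 1 lower on each of those days, with a mean level of -2.16 and -2.08 in shIno80 cells at day 4, against -3.71 and -3.62 in shNT cells, where Lum was not well above background. Of 8 primitive endoderm markers 1 was higher and 3 lower at day 4. In shIno80 cells the trophectoderm markers' mean was higher at day 6 than at day 4, and all 11 member probes were lower. Day and slide cannot be told apart in these changes. The part of any of these markers' states in the members' differences was not tested.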

How the data were processed

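RNA of 12 J1 samples was hybridised to 1-colour Agilent arrays. The deposited scanner files hold intensities from Agilent Feature Extraction 9.5.3.1 per the file headers, background-subtracted and detrended within each array. The value table, deposited on a log2 scale, has columns each equal to the mean spot intensity of 1 file times a factor within a relative tolerance of 1e-06.

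From these, the log2 ratio of processed intensity to the array's 75th percentile was computed. Spots marked non-uniform or population outliers were left out (125 of 41174 probes dropped), spots of a probe were averaged, and 28654 probes were kept, each marked well above background in both arrays of some group. Names came from RefSeq GRCm38.p6 by accession (22951 probes), symbol (6659) or older symbol (3109); 8455 kept the file's name. The 6 groups were fitted together in limma 3.58.1 (R 4.3.3) with Benjamini-Hochberg adjustment over all probes, or over 19183 genes for lists, each read from its brightest kept probe. The fit was tested on simulated data. The number of arrays limits the precision.

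All member probes are named, with every kept gene of the other 2-cell-like list, all activators, regulators passing on at least 2 days and the 10 named genes most like the members' mean profile. Members and lists were chosen with earlier results of these data known. Alternatives were quantile and median scaling, normexp background (offset 50), the value table, other filters, single days, a replicate block, the file attachments, a mean of probes and leaving out each array.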

Additional observations from a re-analysis of the deposited data

Results flagged for a closer look

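For 4 of the 11 member probes, the test of the difference itself found a larger difference between hairpins at day 4 than at day 2. Of all probes, 7.56% were called in that direction. Leaving out 1 array gave 1 to 5 such member probes, and normexp background left 0. The log2 difference, shIno80 minus shNT, grew by 2.75 for Zfp352 A_51_P136390, by 2.42 for Zfp352 A_52_P106585, by 2.98 for Usp17lc A_51_P135622 and by 1.92 for Tcstv1 A_51_P481768. At day 2, Usp17lc and the second Zfp352 probe were not well above background on any array, and Tcstv1 A_51_P481768 was on 1 of 2 shIno80 and 0 of 2 shNT arrays. The growth of these 3 was therefore not measured from a level above background. Day and slide cannot be told apart.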

How the results depend on the processing

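Every one of the 11 member probes passed at day 4 with quantile or median scaling, the value table, no filter, day 4 alone and the replicate block; fewer were tested or passed in 3 other settings. Normexp, whose fitted background mean ran from -898 to -12.5 over the arrays, left 4 member probes at day 4, 2 at day 6 and 0 for the growth of the difference from day 2 to day 4. It left 0, 0 and 1 of the other 2-cell-like genes and 0, 3 and 8 regulators at days 2, 4 and 6, and an Ino80 difference of -1.65 at day 2 that did not pass. Over all 28654 probes it left 1836 calls at day 4 and 3197 at day 6, against 12012 and 14176 in the main setting. Requiring signal on all 12 arrays tested 7 member probes and left 7 at day 4, 4 at day 6 and 1 for the growth. The growth count was 7 with the value table, 2 without a filter and 2 with days 2 and 4 alone. Other 2-cell-like genes at day 4 numbered 0 with median scaling, 2 with the value table, 2 without a filter and 3 with day 4 alone. With day 2 alone, 0 other 2-cell-like genes and 0 regulators passed, and Ino80's -1.99 missed the threshold. With days 4 and 6 alone, 1 change of the difference between them passed. A mean of probes gave 5 regulators at day 2.

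With arrays as the scanner files are attached, 0 members, 0 other 2-cell-like genes and 0 regulators passed on any day, and 0 for the growth; Ino80 stood at 0.10, 0.15 and 0.19. At day 4, Zfp352 A_52_P106585 stood at -0.054, Zscan4c A_52_P363843 at -0.13, Tcstv1 A_51_P481768 and A_52_P66425 at -0.0017 and -0.0099, and Tcstv3 A_52_P165856 at -0.090. At day 6, the Zfp352 probes stood at -0.38 and -0.43, Usp17la at -0.21, Tcstv1 A_51_P481768 and A_51_P481777 at -0.41 and -0.27, and the Tcstv3 probes at -0.50 and -0.25. The causes of these shifts were not tested.

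Same-numbered arrays deviated together with r of 0.32, 0.12 and 0.08 at days 2, 4 and 6, so the numbers were not taken to pair samples. The replicate block gave 8, 11 and 10 member probes at days 2, 4 and 6, 10 for the growth, 1 between days 4 and 6, and 3 other 2-cell-like genes at day 4. Leaving out 1 array gave 0 to 2, 8 to 11 and 5 to 10 member probes at days 2, 4 and 6 (5 without shIno80 day 6 replicate 1), 1 to 5 for the growth and 0 to 0 between days 4 and 6. It gave 2 to 3, 0 to 2 and 2 to 3 other 2-cell-like genes, 1 to 2, 13 to 23 (13 without shIno80 day 4 replicate 2) and 19 to 23 regulators, and Ino80 differences of -2.50 to -1.85.

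Of all calls at day 4, 38.2% were higher with median scaling against 49.1% in the main setting, with an all-probe median of -0.19 against -0.05. At day 6, 62.8% were higher in the value table against 44.1%. Dim levels limit Usp17lc and Zfp352 A_52_P106585, whose folds are bounds where the shNT arrays were not well above background.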
